A study of Arabidopsis thaliana with 3 samples.

Results

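The small RNA machinery of Arabidopsis thaliana was examined for N6-methyladenosine (m6A) in 9 genes: DCL1 (AT1G01040), HYL1 (AT1G09700), SE (AT2G27100), HEN1 (AT4G20910), HST (AT3G05040), AGO1 (AT1G48410), AGO4 (AT2G27040), RDR6 (AT3G49500) and SGS3 (AT5G23570). They were chosen by name, as the rows of the deposited site table named with their locus identifiers. These 9 genes were among the 15180 nuclear genes with at least 1 listed site, and they held 82 of the 120269 sites in the table. The RNA came from seedlings of the wild-type accession Col-0, raised for 7 days on 1/2 Murashige and Skoog plates with 16 h of daily light at 22 °C. There were 3 biological replicates, which form 1 group, with no treatment, mutant or second tissue. The polyadenylated fraction went into CAM-seq, an assay that chemically converts adenosines without the methyl group to inosine. Sequencing then shows G there and A where the methyl group blocked conversion. A small share of unmethylated adenosines also stays A, for which the deposited p-value assumes a background of 1%. The m6A level of a site is the percentage of reads that stayed unconverted.

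Small RNAs of plants are short guides that direct silencing of matching transcripts or loci. MicroRNAs are cut from folded precursors in the nucleus, methylated at their end, and loaded into an Argonaute protein, whereas secondary small interfering RNAs need a polymerase that copies a cleaved transcript into double-stranded RNA. m6A is written on mRNA by a conserved nuclear methyltransferase complex, and in plants as in animals it lies mostly near the stop codon and in the 3′ untranslated region (UTR). The table gives 1 depth and 1 unconverted count per site for the replicates together, so no value below has a replicate error and no test between groups exists. Wilson 95% intervals are given in its place and cover counting error only, and intervals of differences are Newcombe 95% intervals. For a share of sites the interval counts sites, not reads, and takes them as independent, although sites of a gene are not replicates. Intervals between sites picked by their level do not allow for that choice.

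Each of the 9 transcripts carried a site at which most reads stayed unconverted. In every case that site was in the 3′ UTR, where 92.4% of all sites placed on a transcript lay. The reference sequence around these sites is shown because the results turn on them and because the motifs differ. Each line gives 21 bases of the RefSeq genome (TAIR10.1) in the direction of the transcript, 5′ to 3′, with the methylated A in the middle of the 5 capital letters. The number after the gene is the distance in nucleotides from the last base of the stop codon in the spliced transcript.
DCL1 +34, chr1:31103-31123, plus strand: tgtagtcaTTACAttttaaac
HYL1 +130, chr1:3137820-3137840, minus strand: gaaaatcaAAACTaatatgat
SE +168, chr2:11576515-11576535, plus strand: cgcactccATACAtttcctta
HEN1 +66, chr4:11186188-11186208, minus strand: catctataAAACTcaaagctc
HST +24, chr3:1401445-1401465, minus strand: catagtatAAACAgaatttat
AGO1 +67, chr1:17886208-17886228, minus strand: gctttctaAGACTtatcgtgt
AGO4 +205, chr2:11536580-11536600, minus strand: ttaattaaAGACTtattgtag
RDR6 +84, chr3:18349099-18349119, minus strand: ctttgcaaAAACTgcttgctg
SGS3 +99, chr5:7945963-7945983, plus strand: aaatactaGGACAaatctaag

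By the 3 central letters, written as RNA, the highest site was AAC in 4 genes (HYL1, HEN1, HST and RDR6), GAC in 3 (AGO1, AGO4 and SGS3) and UAC in 2 (DCL1 and SE). For DCL1 this holds for named rows only. In its longer 3′ UTR, 2 AAC sites without a gene name stood higher, at 95.2% and 88.2%, as described at the end. AAC and GAC together are the motif class RAC, where R is A or G, the most frequent class in this table. The highest sites lay between +24 and +205, and 8 of the 9 fell between −20 and +180 nucleotides, with AGO4 +205 just beyond. The study describes that stop codon window as a hotspot in its human data, and it is used here as a fixed interval. It held 72.0% of all sites placed on a transcript, and 67.8% of all listed sites above 50% were RAC. Region, window and motif shares among the highest sites of all genes were not computed.

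**Figure D1:**
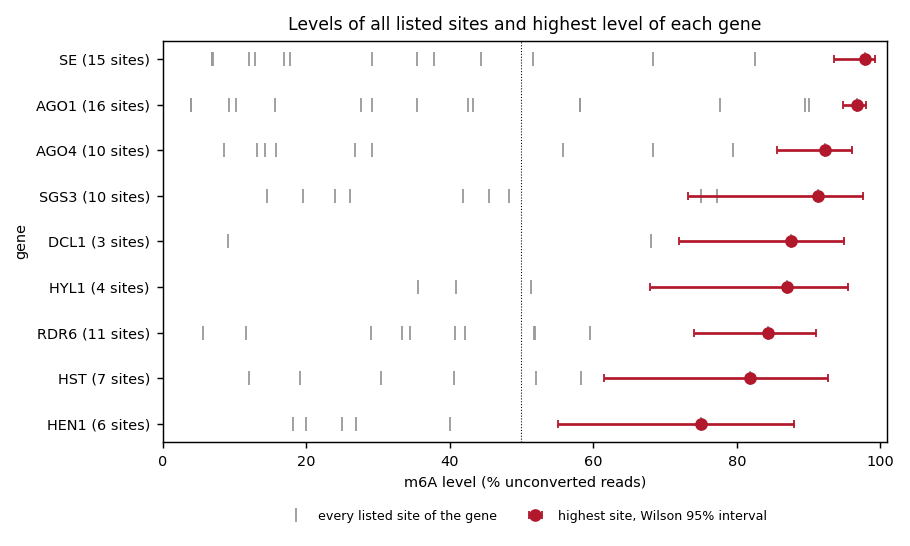
m6A level in percent of reads left unconverted (horizontal axis) for every listed site of the 9 genes (grey ticks), with the highest site of each gene as a red point with its Wilson 95% interval. The highest levels run from 75% in HEN1 to 97.8% in SE, and all 9 intervals lie above the dotted line at 50%.

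In order of their highest level, SE stood at 97.8% (93.6 to 99.2%, 134 reads), AGO1 at 96.7% (94.8 to 98.0%, 490 reads) and AGO4 at 92.3% (85.6 to 96.1%, 104 reads). SGS3 followed at 91.3% (73.2 to 97.6%, 23 reads), DCL1 at 87.5% (71.9 to 95%, 32 reads) and HYL1 at 87.0% (67.9 to 95.5%, 23 reads). RDR6 reached 84.3% (74.0 to 91.0%, 70 reads), HST 81.8% (61.5 to 92.7%, 22 reads) and HEN1 75% (55.1 to 88.0%, 24 reads). The order is only partly resolved by these depths. Of the 8 pairs of neighbours, 7 had an interval of the difference that held 0, and the exception was AGO1 over AGO4, at 4.43 points (0.196 to 11.3). Between the ends of the order, SE and HEN1, the difference was 22.8 points (9.12 to 42.7), an interval that does not allow for their choice as the extremes.

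A highest level over 50% was thus found in 9 of 9 genes, against 67.0% of all listed nuclear genes and 79.1% of genes with at least 3 listed sites, as these 9 had. The median of the highest level was 87.5% over the 9 genes, 70.6% over all genes and 77.7% over genes with at least 3 sites. A maximum tends to grow with the number of sites, whose median was 10 in the 9 genes, 7 over all genes and 9 over genes with at least 3. The count leans on shallow sites: with at least 50 reads at the site it was 5 of 7 genes, against 62.7% of all genes, and with at least 100 reads it was 3 of 4, against 57.0%. HEN1 and HST had no site with 50 reads, and the sites of HYL1 and SGS3 with at least 50 reads reached 35.6% and 48.2%.

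Within the microRNA processing complex, DCL1, the RNase III enzyme that cuts precursors, had 3 sites under its name, all close to the stop codon. Besides +34, the AAC site at −11 stood at 68.1% (56.4 to 77.9%, 69 reads) and the UAC site at +8 at 9.18% (4.91 to 16.5%, 98 reads). The site at −11 lies in the last exon 11 bases before the end of the stop codon and was the one coding-sequence site above 50% among the 82. The level at +34 exceeded that at −11 by 19.4 points (0.994 to 33.3), an interval that ends close to 0. DCL1 has 2 RefSeq isoforms that both hold these sites, and the one with the longer coding sequence has a 3′ UTR of only 41 bases.

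HYL1, the double-stranded RNA-binding partner of DCL1, had 4 sites, all in the 3′ UTR. From the stop codon outward, UAC +38 stood at 35.6% (26.4 to 45.8%, 90 reads), GAU +95 at 40.9% (27.7 to 55.6%, 44 reads), AAC +130 at 87.0% and UAC +145 at 51.4% (35.6 to 67.0%, 35 reads). The highest site exceeded the second by 35.5 points (10.9 to 53.5). No HYL1 site was listed below 35.6%, the highest minimum among the 9 genes.

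SE, a zinc-finger protein that acts with DCL1 and HYL1, had 15 sites, of which 2 were RAC, and its highest site was UAC at +168. The second highest was GAC +224 at 82.5% (76.5 to 87.2%, 194 reads), lower by 15.3 points (9.02 to 21.4). AAU +264 stood at 68.3% (53.0 to 80.4%, 41 reads), near the far end of a 3′ UTR of 301 bases. Its 3 CAC sites, a motif with a median of 16.7% over the whole table, stood at 44.4% (37.4 to 51.7%, +138, 180 reads), 51.6% (43.9 to 59.2%, +142, 159 reads) and 35.4% (26.6 to 45.2%, +161, 99 reads). The first pair shares the 5-letter motif UCACU and differed by 7.13 points (−3.49 to 17.5). Only 6 of the 15 SE sites lay in the stop codon window, and neither of the 2 RAC adenosines in that window was listed.

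HEN1, the methyltransferase that protects the ends of small RNAs, had 6 sites at 20 to 30 reads, the shallowest coverage of the 9 genes. AAC +66 stood at 75% and AAC +124 at 40% (23.4 to 59.3%), a difference of 35.0 points (7.31 to 56.1), and the other 4 sites lay between 18.2% and 26.9%. HST, an exportin-family protein linked to microRNA export, had 7 sites, all in the 3′ UTR and all in the window. AAC +24 at 81.8% was followed by GAU +65 at 58.3% (38.8 to 75.5%, 24 reads) and UAC +89 at 52.1% (38.3 to 65.5%, 48 reads). In HST the highest and the second site could not be separated, with a difference of 23.5 points (−3.15 to 45.8).

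Among the effectors, AGO1, the main Argonaute of plant microRNAs, had the most sites and the highest median depth of the 9 genes, with 16 sites at 24 to 604 reads. Levels over 50% were found at 6 of them. GAC +67 at 96.7% was followed by GAU +84 at 90.1% (87.4 to 92.3%, 578 reads) and GAC +126 at 89.5% (84.6 to 92.9%, 209 reads). GAC +167 stood at 77.6% (66.3 to 85.9%, 67 reads). AAC +140 had 58.2% (48.8 to 67.0%, 110 reads) and AAC +163 had 58.2% (46.3 to 69.3%, 67 reads). The GAU site ranked at percentile 98.9 among the 15456 listed GAU sites. All 7 RAC adenosines of the AGO1 stop codon window were listed. At the other extreme, the coding AAC site at −295 had 3.90% (2.42 to 6.24%) at 410 reads, a level that could be listed only because of that depth. The 11 sites from +67 on lie in 2 of the 3 RefSeq isoforms.

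AGO4, the Argonaute of RNA-directed DNA methylation, had 10 sites, all in the 3′ UTR. Of these, 4 exceeded 50%, and the 3 highest lay at +182 or farther. GAC +54 stood at 29.2% (23.5 to 35.7%, 212 reads) and GAC +97 at 15.8% (10.6 to 22.9%, 133 reads). GAC +124 had 55.8% (49.4 to 62.1%, 231 reads), AAC +182 had 79.5% (73.2 to 84.6%, 190 reads), GAC +205 had 92.3% and AAU +219 had 68.4% (57.5 to 77.6%, 79 reads). In all, 5 of the 10 sites lay beyond the stop codon window, which ends at +180.

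RDR6, the RNA-dependent RNA polymerase of the secondary small RNA pathway, had 11 sites. All 4 RAC adenosines of its window were listed, and they spanned most of the range: AAC +84 at 84.3%, AAC +65 at 59.6% (49.5 to 68.9%, 94 reads), AAC +115 at 51.9% (41.1 to 62.6%, 79 reads) and GAC +60 at 5.61% (2.60 to 11.7%, 107 reads). UAC +146 stood at 51.8% (39.0 to 64.3%, 56 reads). RDR6 also had 2 adjacent adenosines in the coding sequence of exon 1, at −3226 and −3225, with 29.0% (16.1 to 46.6%, 31 reads) and 34.5% (19.9 to 52.7%, 29 reads). Their motifs, CAA and AAA, are seldom listed, with 59 and 573 sites in the whole table. The study counts CAA among the rarely methylated motifs by which it defines background noise.

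SGS3, the RNA-binding partner of RDR6 that protects cleaved templates, had 10 sites at 22 to 56 reads. GAC +99 at 91.3% and GAC +80 at 77.3% (56.6 to 89.9%, 22 reads) differed by 14.0 points (−8.02 to 35.7), which these depths cannot separate. AAC +181 stood at 75% (57.9 to 86.7%, 32 reads). Of the 7 RAC adenosines in its window, all GAC, 5 were listed. The nearest to the stop codon, GAC +27, had 19.6% (11.3 to 31.8%, 56 reads) although it shares the 5-letter motif AGACU with +80.

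**Figure D2:**
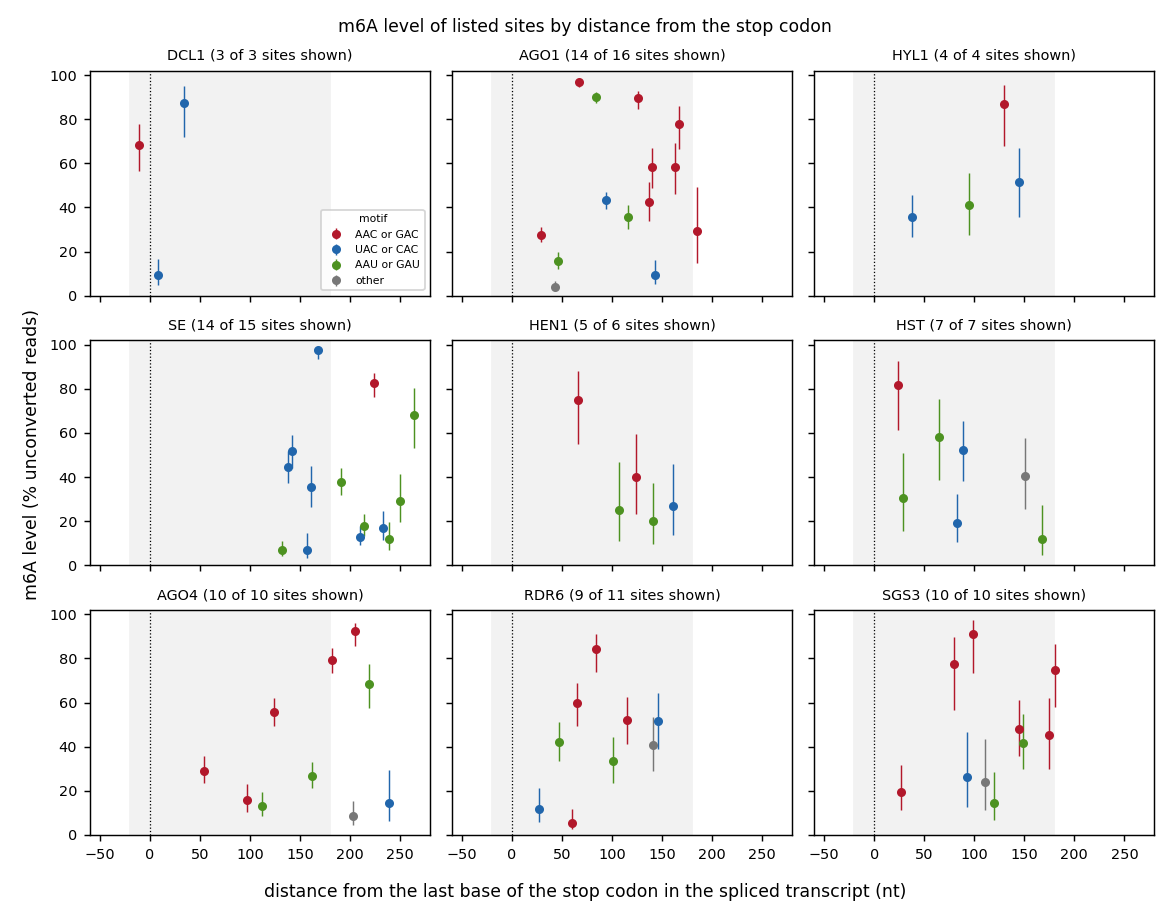
m6A level in percent (vertical axis, points with Wilson 95% intervals) against the distance from the last base of the stop codon in nucleotides (horizontal axis), a panel per gene, coloured by motif class. The dotted line marks the stop codon and the grey band the window from −20 to +180, which holds 61 of the 82 sites; coding sites far upstream are outside the axis and each panel states how many sites it shows.

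Over the 9 genes, 75 sites (91.5%) were 3′ UTR sites, 7 were coding and 0 were in the 5′ UTR. Over all placed sites, 92.4% were 3′ UTR sites. The stop codon window held 61 sites (74.4%, 64.0 to 82.6% over sites), against 72.0% of all placed sites. The coding sites ran from 3.90% to 68.1% with a median of 18.2%, and the 3′ UTR sites from 4.02% to 97.8% with a median of 40.6%. In their windows, 24 of 38 RAC adenosines (63.2%) were listed, and 61 of 476 adenosines of any motif (12.8%). Over all genes with a placed site the shares were 47.6% and 9.76%. Read depth is known only for listed adenosines, so an unlisted one may have been unmethylated or too shallow.

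RAC made up 31 of the 82 sites (37.8%, 28.1 to 48.6% over sites), against 39.3% of all sites. Its 2 members stood in the reverse order, with AAC at 14 sites (17.1%, against 26.8% of all) and GAC at 17 (20.7%, against 12.5% of all). The AAC sites came from 8 genes and the GAC sites from 5. The stop codon windows of the 9 genes held 16 AAC and 22 GAC adenosines, of which 10 and 14 were listed. YAC, which is UAC and CAC, made up 24.4% (21.2% of all), RAU, which is AAU and GAU, 28.0% (28.2% of all) and other motifs 9.76% (11.3% of all). Of the 29 sites above 50%, 19 were RAC (65.5%), 6 YAC (20.7%) and 4 RAU (13.8%), against 67.8%, 15.3% and 16.1% of all sites above 50%. URUAY, a motif described for plant m6A in which the A before the final base is methylated and Y is C or U, was present at 1 of 82 sites (1.22%), RDR6 +141, against 4.57% of all sites.

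Median levels lay above those of the whole table in each class. The median was 58.2% for RAC (40.4% over all sites), 31.1% for YAC (20.2%), 29.2% for RAU (17.1%) and 26.5% for other motifs (8.93%). Over all 82 sites the median was 36.7% and the mean 41.6% ± 27.2 (SD over sites), against 21.8% and 31.9%. Levels above 50% were reached by 35.4% of the sites and by 24.2% of all listed sites, and levels of at least 90% by 6.10% and 3.71%. Of the 82 sites, 57 (69.5%) exceeded the median of their own 3-letter motif and 60 (73.2%) that of their 5-letter motif.

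Depth moves with this comparison. The median depth was 71.5 reads at the 82 sites and 107 at all sites, and low levels can be listed only where depth is high: the lowest listable level was 20% at 20 reads, 10% at 50, 6% at 100 and 2.80% at 500. Exactly at that limit stood 6 of the 82 sites. A level of 20% or more passed the threshold whatever the depth. Among such sites the medians were closer, 49.8% in the 9 genes and 46.7% in the whole table, and 36 of 58 (62.1%) exceeded the median of their motif. With at least 100 reads the medians were 32.4% and 15.4%.

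**Figure D3:**
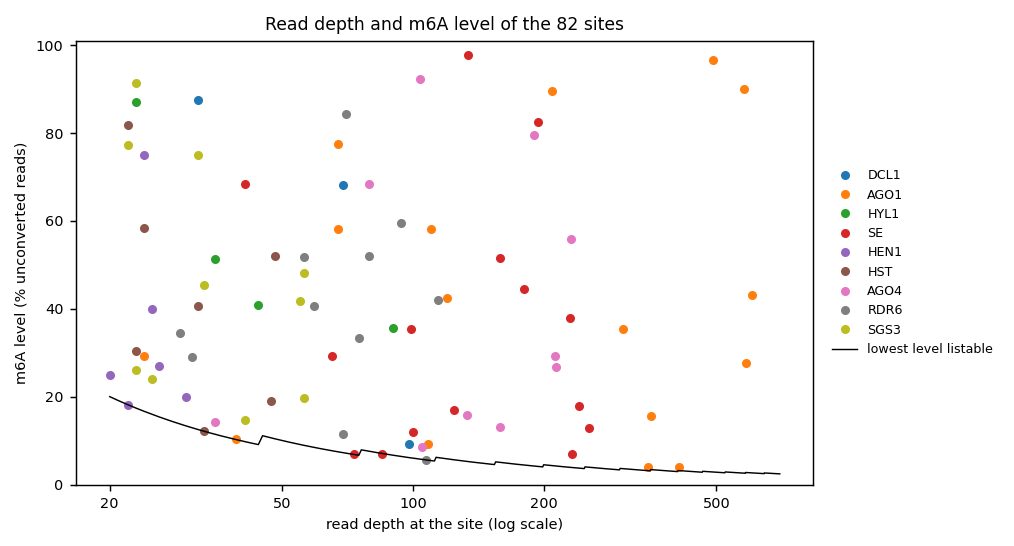
m6A level in percent (vertical axis) against read depth on a log scale (horizontal axis) for the 82 sites, coloured by gene, with the lowest level that the listing threshold allows at each depth as a black line. Depth runs from 20 to 604 reads, HEN1 sites sit at 20 to 30 reads, and 6 sites lie on the line.

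Neighbouring adenosines could differ widely. The gap between successive sites of a gene had a median of 15 nucleotides over 73 gaps, and 73 of the 82 sites (89.0%) had another listed site within 30 nucleotides. Over all placed sites the median gap was 14 nucleotides and 87.2% had such a neighbour. In 24 pairs of successive sites at most 10 nucleotides apart, from 6 genes, the difference in level ranged from 4.90 to 83.7 points. Its median was 31.2, and in 17 pairs its interval did not hold 0. Such differences were not computed over all close pairs of listed sites, so whether their size is usual is unknown. The widest difference was in AGO4, at 83.7 points (74.1 to 89.2). There the adenosine at +203 had 8.57% (4.57 to 15.5%) and the one at +205 had 92.3%. In the AGO4 sequence printed above, +203 is the first of the capital letters. AGO1 had a run of 3 sites in 7 bases, GAC +137 at 42.5%, AAC +140 at 58.2% and UAC +143 at 9.26%. These intervals treat the reads at both sites as separate, although a read can cover both. The authors removed reads with over 3 unconverted adenosines, and the part of that filter in the levels of clustered sites was not tested.

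Sites that share a 5-letter motif could also differ. AGACU was present at 5 sites of 3 genes, from 19.6% at SGS3 +27 to 96.7% at AGO1 +67. The difference was 77.1 points (64.7 to 85.5), an interval that does not allow for their choice as the extremes. Of the motifs present at 4 or more sites, AGACU had the widest difference and AAACU the narrowest. A contrast between AGACU sites was also found within a transcript, as shown by the pair from SGS3, in which the lower site is nearer to the stop codon.
SGS3 +27, chr5:7945891-7945911, plus strand, 19.6%: acaagacaAGACTaagtttct
SGS3 +80, chr5:7945944-7945964, plus strand, 77.3%: gatctgagAGACTccatttaa
The difference between these sites was 57.6 points (33.6 to 72.7). In AGO4, the pair of UGACU sites differed by 26.6 points (17.5 to 35.1) and the pair of GAAUA sites by 41.6 points (29.0 to 52.3), in both cases with the higher site farther downstream. In AGO1 the AGACU pair ran the other way, with +67 above +167 by 19.1 points (10.6 to 30.5). In the other 3 pairs within a gene the interval held 0, with differences of 6.82 points (−17.8 to 31.2) for AGAUU in HEN1, 8.77 (−5.42 to 22.1) for GGAUU in RDR6 and the 7.13 given above for UCACU in SE. AAACU was narrower over its 4 sites in 4 genes, from 68.1% to 87.0%, a difference of 18.8 points (−2.61 to 33.3).

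AGO1 and DCL1 are themselves microRNA targets, through miR168 and miR162, so the position of the pairing sites relative to m6A was determined. The mature sequences were read from the RefSeq genome, with the seed, bases 2 to 8, in capitals. In the transcript stretches, capitals mark bases that pair with the microRNA as A with U or G with C. A mismatch is any other facing pair, G with U included.
miR168a-5p, chr4:10578652-10578672, plus strand: uCGCUUGGugcaggucgggaa
AGO1 site, chr1:17891529-17891549, minus strand: UUCCCGAgCUGCAuCAAGCuA
miR162a-3p, chr5:2634936-2634956, minus strand: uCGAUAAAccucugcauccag
DCL1 site, chr1:27522-27627, plus strand, spliced: CUGGAUGCAGAGGUaUUAUCGA
The AGO1 stretch has 3 mismatches by this count, and its u that faces base 8 of the microRNA is a G with U pair. It lies in the coding sequence of exon 2, 887 nucleotides from the nearest listed site, the weak one at −1902. That site had 10.3% (4.06 to 23.6%, 4 of 39 reads), the lowest level listable at its depth. Its deposited context differs from the reference, and the next listed AGO1 site was at −295. The DCL1 stretch spans the junction of exons 12 and 13 in the isoform with the longer 3′ UTR, pairs with 1 bulged base and no mismatch, and lies 2649 nucleotides from the nearest listed site, at −11. In the other DCL1 isoform the best match at that junction had 3 mismatches and 1 bulged base. No listed site fell in either stretch. Few listed sites lie in coding sequence at all, 7 of the 82 and 8113 of the 115480 sites placed on a transcript. Read depth in the 2 stretches is unknown, so whether they are methylated was not tested.

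A wider list of 32 small RNA genes places these values. Of these, 22 had listed sites, 151 in all, and 20 of the 22 (90.9%) had a highest level over 50%, as did all 19 with at least 3 sites, against 67.0% and 79.1% of all listed genes and of those with at least 3. The count fell to 13 of 17 with at least 50 reads, against 62.7% of all genes, and to 6 of 10 with at least 100, against 57.0%. Over all protein-coding nuclear genes, 54.6% had a listed site. The 6 cofactors of microRNA processing were all listed, with highest levels from 87.8% to 97.0%. Among the role groups of this list, theirs was the range with the highest lower end. The 3 listed genes of RNA-directed DNA methylation ran from 80.8% to 91.7%, and the 3 listed Argonautes from 27.3% to 72.4%. Of all listed genes, 74.0% had a highest level below 87.5%. Depth at the highest sites of the 6 cofactors ran from 25 to 204 reads. The highest of the wider list was DDL, a protein with a forkhead-associated domain that binds DCL1, at 97.0% (84.7 to 99.5%, 33 reads). Next were CBP20, a subunit of the nuclear cap-binding complex, at 96.1% (92.5 to 98.0%, 204 reads), and SDN1, a nuclease that degrades small RNAs, at 95% (76.4 to 99.1%, 20 reads). The lowest were AGO7, the Argonaute of the trans-acting pathway, at 27.3% (17.3 to 40.2%, 55 reads), RDR1, an RNA-dependent RNA polymerase, at 27.3% (13.2 to 48.2%, 22 reads), and SDE3, an RNA helicase, at 51.5% (35.2 to 67.5%, 33 reads). AGO7 had 1 site and RDR1 had 2. Of 8 further Argonautes, 3 were listed, AGO2, AGO7 and AGO10. No listed site carried the name of DCL3, AGO3, AGO5, AGO6, AGO8, AGO9, RDR2, NRPD1, SHH1 or KTF1, and whether their transcripts were covered is unknown.

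**Figure D4:**
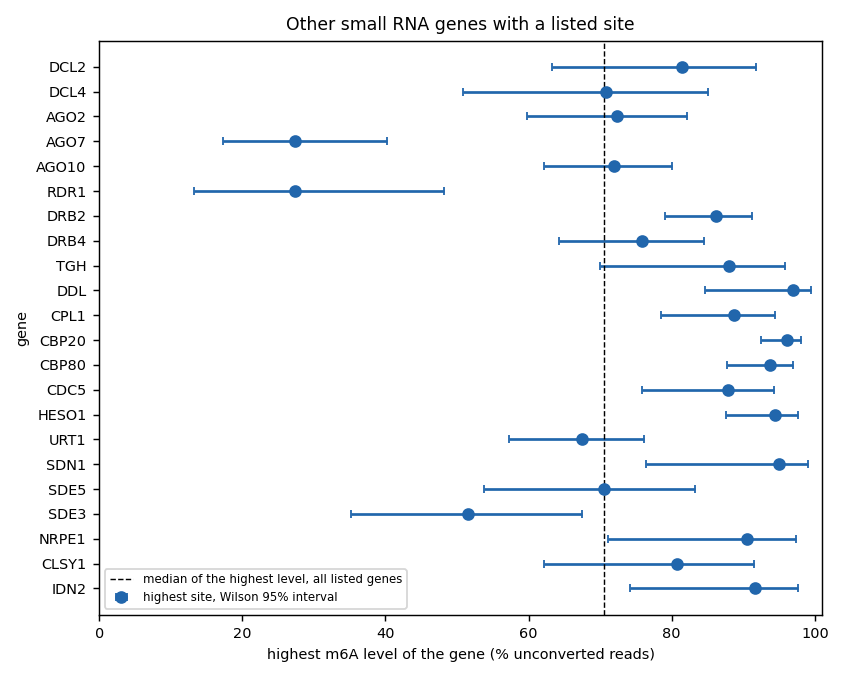
Highest m6A level in percent (horizontal axis, points with Wilson 95% intervals) of the 22 further small RNA genes with a listed site, against the median of 70.6% over all listed genes (dashed line). AGO7 and RDR1, both at 27.3%, are the 2 genes below 50%, and their intervals end at 40.2% and 48.2%.

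The tissue label was compared with marker genes through the depth at their sites. The green-tissue markers RBCS1A, LHCB1.3 and PSAD-1 had median depths of 2538 to 5793 reads, while the root markers EXPA7, PRP3 and TIP2;3 had no listed site. The table gives no depth for genes without a site, so the share of root RNA in these whole seedlings could not be measured.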

How the data were processed

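CAM-seq was applied to polyadenylated seedling RNA of 3 replicates. According to the labels and methods, adapter trimming used Cutadapt, low-quality and short reads were dropped, a 10 nt random barcode was taken, and mapping to TAIR10 used hisat2-3n. The authors then removed reads with over 5% mismatches or with over 3, or a large share of, unconverted A. No version is given in the sources used here. The authors' deposited table holds raw counts of covering and unconverted reads per site, with no sample name, so each count was treated as pooled over the replicates. It also holds a deposited p-value from a binomial test. Recomputing it at a background of 1% gave the deposited values within a relative 3.21e-12 for the 82 sites. The lowest depth was 20 and the largest p-value 0.000999, so only sites under 0.001 at 20 or more reads are listed.

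Levels are 100 times unconverted reads over depth. Wilson and Newcombe 95% intervals cover counting error only, except that the interval of a share of sites is over sites, taken as independent. On simulated data the lowest coverage was 93.1% for Wilson and 95.1% for Newcombe, over 4000 sets at each of 4 depths. The simulated reads were independent, at a few fixed true levels, with equal depths and a single true difference for pairs. Coverage at unequal depths, with reads shared between sites or for sites picked as extremes was not tested. Distances and regions use the RefSeq TAIR10.1 transcript with the longest coding sequence, ties broken by length. All 82 sites are A in that reference. The deposited 31-base context was identical there for 79 of them, and the other 3 lay near an exon or transcript end. The name AGO8 was not found in RefSeq, so its locus identifier was used. In the text, the 2 highest sites of each gene and every site over 50% are given in full, with other sites added for a comparison after their values were seen; of the wider list, the 3 highest, the 3 lowest and all unlisted genes. The members and gene lists were chosen with earlier results of these data known. The pairs of close sites, the shared motifs and the shares over all genes for spacing and for listed adenosines were added after seeing the data. Python 3.11.15, numpy 2.4.6, pandas 2.3.3 and scipy 1.17.1 were used. Alternatives were other depth, p-value and level minimums, weights, windows and transcripts.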

Additional observations from a re-analysis of the deposited data

Results flagged for a closer look

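The table holds 2 listed sites that carry no gene name but lie on the plus strand in the 3′ UTR of the DCL1 isoform with the longer 3′ UTR, beyond the end of the other isoform. They drew attention because they are data that the named rows leave out. Each is an AAC site, shown here with 10 bases on either side.
DCL1 +43, chr1:31112-31132, plus strand: tacattttAAACCttaaaacc
DCL1 +51, chr1:31120-31140, plus strand: aaaccttaAAACCatagtggt
The first stood at 95.2% (Wilson 95% interval 77.3 to 99.2%, 20 of 21 reads) and the second at 88.2% (73.4 to 95.3%, 30 of 34 reads). Counting them with DCL1 would give it 5 sites in place of 3 and a highest level of 95.2% in place of 87.5%. Its highest site would then be AAC in place of UAC. The intervals of the levels 95.2% and 87.5% overlap.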

How the results depend on the processing

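Of 66 alternatives, 44 left the value unmoved and 22 moved it. Many of the 44 were fixed in advance and do not test the values. A p-value under 0.0001 or a minimum level of 20% cannot remove a site over 50%. Under both, the highest levels and the counts of genes over 50% could not change. Sites named with an overlapping gene numbered 0, so including them could not change the count of sites either. A median or mean was called moved past 0.966 points, the counting error of the pooled reads, which is far below the spread between sites. A share or highest level was called moved outside its own Wilson interval, and a count past 1.5 times. Depth moved most. With at least 50 reads there were 52 sites, a mean level of 40.5%, 5 of 7 genes over 50%, 13 of 17 wider-list genes over 50%, and highest levels of 68.1% in DCL1, 35.6% in HYL1 and 48.2% in SGS3. With at least 100 reads there were 32 sites, a median of 32.4%, a mean of 39.6%, 3 of 4 genes and 6 of 10 wider-list genes over 50%, and a highest level of 42.1% in RDR6. HEN1 and HST gave no value at 50 reads, nor did DCL1, HYL1, HEN1, HST and SGS3 at 100. A p-value under 0.0001 gave a median of 40.6% and a mean of 43.7%, and a minimum level of 20% gave 49.8% and 53.9%; both remove low levels by construction. The mean of gene means was 43.4%. Weighting by unconverted reads gave RAC 49.5%. The window share was 34.1% for −20 to +100 and 59.2% with the first transcript in the annotation, which holds 71 of the sites. Including the sites without a name, an alternative added after seeing the data, gave DCL1 95.2%. The highest sites of AGO1, SE and AGO4 had 490, 134 and 104 reads and so passed all depth, p-value and level minimums. Their highest levels therefore could not change under these minimums.

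No paired analysis was possible because the samples form 1 group and the columns carry no replicate number; leaving out a replicate could not be run for the same reason. Depth limits HEN1 most, where every site had 20 to 30 reads and the highest site an interval from 55.1 to 88.0%.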
